A study of Mus musculus with 16 samples.

Results

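The expression of 10 genes that mark mural cells, the pericytes and smooth muscle cells that wrap brain blood vessels, was followed in RNA of oligodendrocytes sorted from mouse brain. They were chosen as a list of known mural markers: Pdgfrb, Rgs5, Acta2, Tagln, Myh11, Kcnj8, Abcc9, Vtn, Notch3 and Des. They are 10 of 53801 genes in the deposited table, and all 10 were among the 21768 that passed the filter on low counts. Every member had counts in all 16 libraries.

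All mice were male, and each of the 4 groups had 4 libraries. The controls, C57BL/6J Jcl, were kept on a control diet (WT_NCD) or a high-fat diet (WT_HFD). The knock-in mice were App NL-G-F/NL-G-F homozygotes on the control diet (App_NCD) or the high-fat diet (App_HFD). Their mouse App gene carries a humanised amyloid-β stretch with the Swedish, Beyreuther/Iberian and Arctic mutations. The knock-in replaces sequence in the germline App gene, so all cell types carry it. The control diet had 12.5% of its energy as fat and the high-fat diet 60% of it. Diets ran for 6 months from the age of 2 months, and brains were taken at 8 months after perfusion with saline. Oligodendrocytes were isolated from the brain by magnetic sorting, and the surface antigen used is not given in the sources used here. In the names below, the number after a group is the library's number in the labels. Those numbers do not state whether each library is 1 animal, so p-values measure the spread between libraries.

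Mural cells sit on the outer face of the vessel wall, in contact with endothelial cells. Pericytes cover capillaries, and smooth muscle cells form rings around arterioles. Endothelial cells recruit both by secreting PDGF-B, which binds the receptor PDGFRB on mural cells, and Jagged ligands on endothelium act on NOTCH3. Smooth muscle cells contract through smooth muscle actin (Acta2) and its myosin heavy chain (Myh11), with the actin-binding protein transgelin (Tagln) and the intermediate filament desmin (Des). Kcnj8 and Abcc9 encode the pore Kir6.1 and the regulatory subunit SUR2 of the ATP-sensitive potassium channel of mural cells, which relaxes them when open. Rgs5 shortens G-protein signalling in pericytes. Vtn encodes vitronectin, an extracellular matrix protein that brain pericytes secrete. None of these genes is a marker of oligodendrocytes. In RNA from a sorted population, fewer mural cells in the brain, fewer carried over in the sort and less RNA per mural cell cannot be told apart.

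Contractile genes are known to be switched on by serum response factor, which binds the CArG box, and Notch targets by RBPJ, whose core site reads TGGGAA. Both were searched on both strands in the 250 bases before the RefSeq start (build GRCm38.p6) of the 7 members in the RefSeq promoter table: Rgs5, Acta2, Kcnj8, Abcc9, Vtn, Notch3 and Des. A CArG box with at most 1 base other than A or T in its middle was present in Acta2 alone among the 7, at 2 sites, while 8.59% of 32851 windows of that length held one. The word TGGGAA stood in Acta2, Abcc9 and Vtn, and in 21.6% of the windows. The sites in Acta2 lie 84 to 75 and 34 to 25 bases before the start, and the nearer one overlaps the TGGGAA at 27 to 22. A match describes these letters only. The 2 Acta2 sites are shown because Acta2 was the member called on both diets; capitals mark the CArG-like box, at chr19:34255438-34255467 and chr19:34255388-34255417, minus strand.
Acta2 distal site: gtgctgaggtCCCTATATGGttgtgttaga
Acta2 proximal site: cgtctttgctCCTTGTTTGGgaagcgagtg

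Kcnj8 and Abcc9 lie next to each other in the genome and encode both subunits of 1 channel. Over the 15 libraries without App_NCD 553, Rgs5 and Abcc9 were the pair whose levels followed each other most closely. The upstream sequences of Kcnj8, Abcc9 and Rgs5 are shown for these reasons, 5′ to 3′, as far as they lie outside the annotated gene body. They span chr6:142571615-142571864 (minus strand), chr6:142702316-142702524 (minus strand) and chr1:169655251-169655500 (plus strand), with no capitals.
Kcnj8 upstream: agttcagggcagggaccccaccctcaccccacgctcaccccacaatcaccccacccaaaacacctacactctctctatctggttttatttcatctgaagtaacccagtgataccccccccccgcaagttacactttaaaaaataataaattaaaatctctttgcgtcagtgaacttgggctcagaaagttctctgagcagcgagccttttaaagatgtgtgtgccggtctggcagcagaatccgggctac
Abcc9 upstream: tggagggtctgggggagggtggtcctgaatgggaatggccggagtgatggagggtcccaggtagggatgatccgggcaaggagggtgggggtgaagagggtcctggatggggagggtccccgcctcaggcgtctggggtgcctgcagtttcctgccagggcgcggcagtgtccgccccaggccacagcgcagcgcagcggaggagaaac
Rgs5 upstream: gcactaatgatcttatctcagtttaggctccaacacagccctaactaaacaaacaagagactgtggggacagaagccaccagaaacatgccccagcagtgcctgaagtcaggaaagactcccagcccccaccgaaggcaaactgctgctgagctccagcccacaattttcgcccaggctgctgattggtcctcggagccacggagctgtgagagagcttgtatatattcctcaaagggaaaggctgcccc

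Library totals ran from 90220118 to 217925484 counts in wild type and from 64538297 to 101709022 in the knock-in. Depth thus differed with genotype, with overlap at App_NCD 537, and its part in the differences below was not tested. The library App_NCD 553 stood apart: 39.4% of its counts came from mitochondrially encoded genes against 1.22% to 4.62% in the other 15, and it had 18928 genes with a count against 27151 to 30617. The 10 members made up 0.00912% of its counts and 0.0151% to 0.0449% of those of the others. Counts of called genes are therefore given with and without this library. WT_HFD 2 and WT_HFD 16 had the most haemoglobin counts, 0.929% and 0.515%. Mbp, the myelin basic protein gene that marks the sorted cells, was at 3769 ± 362 CPM (SD, n = 4) in WT_NCD and 3242 ± 723 CPM in App_NCD. CPM is the count relative to the TMM-scaled library total, as edgeR computes it.

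Vitronectin was the most abundant member. Between genes, levels were compared as CPM per kilobase of exon sequence. In WT_NCD, Vtn was at 34.3 ± 6.43 CPM per kb (SD, n = 4). Rgs5 followed at 18.9 ± 4.20 and Acta2 at 12.7 ± 1.34, and the ranges of those 2 overlapped. Tagln came next at 7.31 ± 0.742. Below it, Pdgfrb at 5.08 ± 0.435, Myh11 at 4.21 ± 1.05, Notch3 at 3.23 ± 0.859, Abcc9 at 2.27 ± 0.452 and Kcnj8 at 2.12 ± 0.322 each overlapped the neighbour in the order. Des was lowest at 0.814 ± 0.212 CPM per kb and overlapped none. Vtn was also the highest in the other 3 groups, at 35.0 in WT_HFD, 20.7 in App_NCD and 31.0 CPM per kb in App_HFD, and Des was the lowest in each. StringTie can divide reads among similar transcripts, so the level of Acta2, whose sequence resembles the other actin genes, is uncertain to that extent.

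In GENCODE M21 (mm10) all 10 are protein-coding genes. The annotation places Acta2 (ENSMUSG00000035783) to chromosome 19, 34241090 to 34255590 on the minus strand. It places Tagln (ENSMUSG00000032085) to chromosome 9, 45929619 to 45936058 on the minus strand, Myh11 (ENSMUSG00000018830) to chromosome 16, 14194535 to 14291372 on the minus strand, and Des (ENSMUSG00000026208) to chromosome 1, 75360329 to 75368579 on the plus strand. It places Pdgfrb (ENSMUSG00000024620) to chromosome 18, 61045150 to 61085061 on the plus strand, Notch3 (ENSMUSG00000038146) to chromosome 17, 32120820 to 32166852 on the minus strand, and Rgs5 (ENSMUSG00000026678) to chromosome 1, 169655501 to 169695813 on the plus strand. It places Kcnj8 (ENSMUSG00000030247) to chromosome 6, 142564837 to 142571614 on the minus strand, Abcc9 (ENSMUSG00000030249) to chromosome 6, 142587862 to 142702315 on the minus strand, and Vtn (ENSMUSG00000017344) to chromosome 11, 78499091 to 78502324 on the plus strand. Kcnj8 and Abcc9 lie in the same orientation with Kcnj8 downstream.

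**Figure D1:**
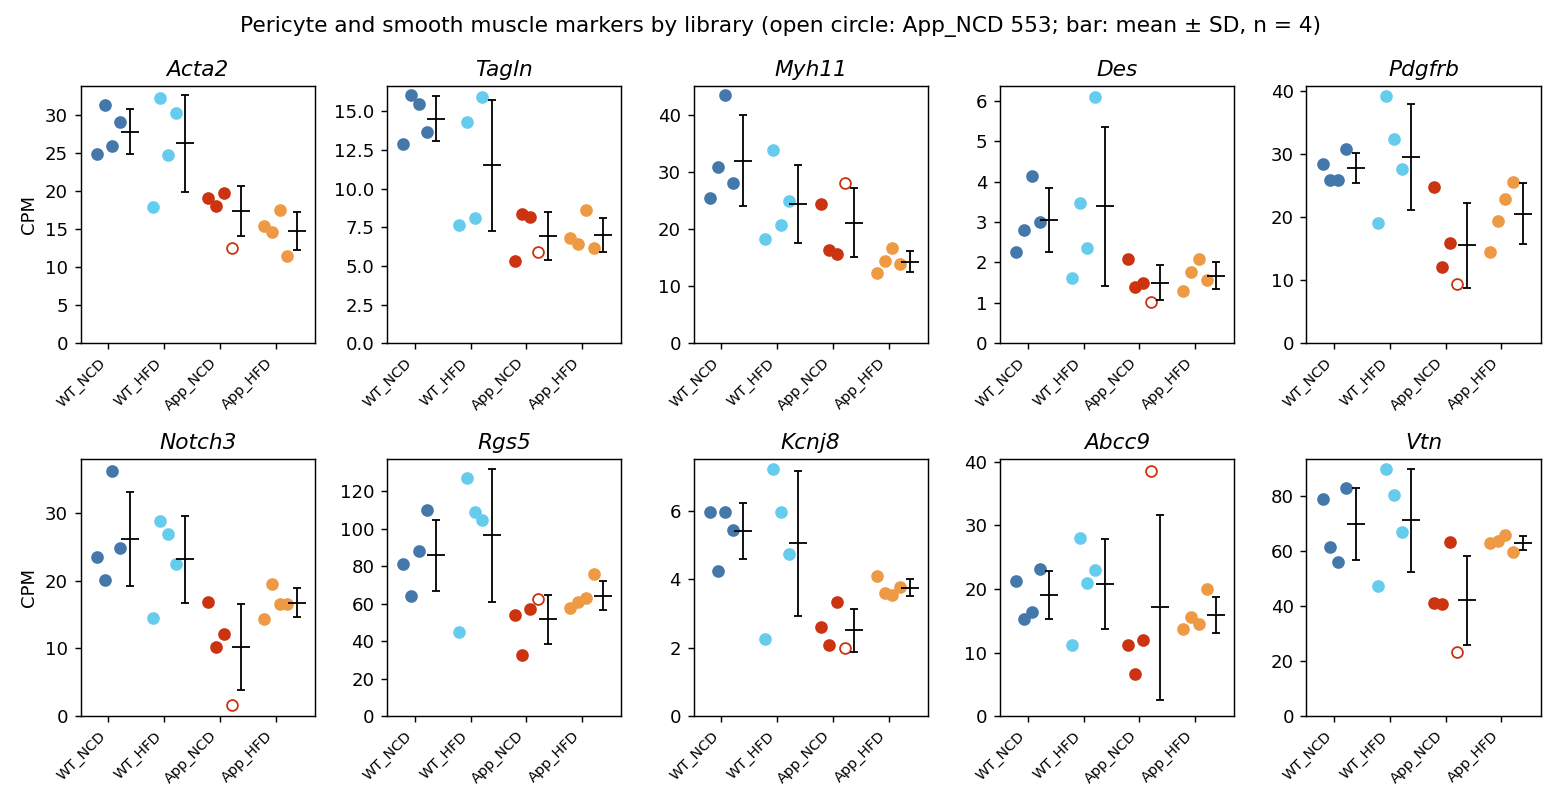
CPM of each of the 10 markers in every library (points), with the group mean and SD (n = 4) to the right of the points; App_NCD 553 is the open circle. Acta2 lies at 12.6 to 19.7 CPM in App_NCD, below the 25.0 to 31.4 CPM of WT_NCD, and App_NCD 553 is high for Abcc9 and low for Notch3.

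On the control diet Acta2, Tagln and Kcnj8 fell in the knock-in with all 16 libraries, and the other 7 members had log2 fold changes below 0 that did not pass. In edgeR's quasi-likelihood test with Benjamini-Hochberg adjustment over all tested genes, 3 of 10 members were lower and none was higher, while 1.88% of all tested genes were lower and 6.50% higher. Without App_NCD 553, 7 of 10 were lower: Acta2, Tagln, Myh11, Notch3, Rgs5, Kcnj8 and Abcc9. The shares of all genes were then 7.22% lower and 10.2% higher. The median log2 fold change of the 10 was -0.79 against -0.02 over all genes, and -0.89 against -0.05 without that library. All App_NCD libraries were below all WT_NCD libraries for 7 of 10 members, where 8.27% of all genes had this pattern. Without App_NCD 553 it was 9 of 10, all but Vtn, where 12.3% of all genes had it.

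Among the contractile genes, Acta2 was at 25.0, 31.4, 26.0 and 29.1 CPM in the WT_NCD libraries 4, 5, 11 and 12. It was at 19.2, 18.1, 19.7 and 12.6 CPM in the App_NCD libraries 537, 538, 545 and 553, in that order. The groups did not overlap, and the lowest library was App_NCD 553. On the log2 scale Acta2 fell by 0.68 ± 0.20 (SE, adjusted p = 0.0454), and the value was -0.58 ± 0.18 (SE, adjusted p = 0.0333) without App_NCD 553. Tagln, which binds and bundles actin filaments, was at 12.9, 16.1, 15.4 and 13.7 CPM in WT_NCD and 5.30, 8.34, 8.20 and 5.93 CPM in App_NCD. Its App_NCD libraries were all below its WT_NCD libraries, and App_NCD 537 was the lowest. Tagln fell by 1.06 ± 0.24 (SE, adjusted p = 0.0129). Leaving out WT_NCD 11, WT_NCD 12 or App_NCD 538 in turn left Tagln as the 1 member called, and leaving out App_NCD 537 gave 5 calls. The shares of all genes called in those fits are not given here.

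Myh11, the motor of smooth muscle, was at 25.5, 30.9, 43.5 and 28.1 CPM in WT_NCD and 24.4, 16.4, 15.7 and 28.1 CPM in App_NCD. App_NCD 553 was the highest of its group, and the groups overlapped. Myh11 had a fold change of -0.60 ± 0.24 (SE, adjusted p = 0.124) on the log2 scale. Without App_NCD 553 the groups no longer overlapped and Myh11 fell by 0.79 ± 0.23 (SE, adjusted p = 0.0281). The counts of Des, the intermediate filament gene, ran from 36 in App_NCD 553 to 610 in WT_HFD 16. Its levels were 2.26, 2.80, 4.15 and 3.01 CPM in WT_NCD and 2.09, 1.40, 1.497 and 1.02 CPM in App_NCD, without overlap. The log2 fold change of Des was -1.02 ± 0.36 (SE, adjusted p = 0.0905), and it did not pass without App_NCD 553 either (-0.91, adjusted p = 0.100).

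The receptors came next. Pdgfrb, through which mural cells receive PDGF-B, was at 28.5, 25.9, 26.0 and 30.9 CPM in WT_NCD. In App_NCD it was at 24.8, 12.0, 16.0 and 9.37 CPM. All App_NCD libraries were below WT_NCD, with App_NCD 537 close to the wild-type range. The log2 fold change of -0.84 ± 0.28 (SE, adjusted p = 0.0747) did not pass. Notch3, the receptor whose human counterpart is mutated in CADASIL, an inherited small-vessel disease, was at 23.5, 20.1, 36.1 and 24.8 CPM in WT_NCD. In App_NCD it was at 16.8, 10.2, 12.2 and 1.59 CPM, so App_NCD 553 was far below the other 3 libraries, which themselves lay below WT_NCD. With all libraries Notch3 had -1.35 ± 0.45 (SE, adjusted p = 0.0749) on the log2 scale. Without App_NCD 553 the standard error was smaller and Notch3 fell by 1.03 ± 0.24 (SE, adjusted p = 0.00999).

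Of the pericyte genes, Rgs5 was at 81.2, 64.2, 88.2 and 110.2 CPM in WT_NCD and 54.0, 32.8, 57.1 and 62.7 CPM in App_NCD. The groups did not overlap by a small margin, WT_NCD 5 being the lowest wild-type library and App_NCD 553 the highest knock-in one. Rgs5 had a log2 difference of -0.73 ± 0.27 (SE, adjusted p = 0.105), and without App_NCD 553 it fell by 0.87 ± 0.29 (SE, adjusted p = 0.0495). Vtn was at 78.8, 61.5, 55.8 and 82.7 CPM in WT_NCD and 41.0, 40.6, 63.0 and 23.2 CPM in App_NCD. App_NCD 545 lay inside the wild-type range, so the groups overlapped. The log2 fold change of Vtn, -0.73 ± 0.25 (SE, adjusted p = 0.0837), did not pass with or without App_NCD 553.

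The channel subunits parted in 1 library. Kcnj8, the pore, was at 5.97, 4.23, 5.97 and 5.45 CPM in WT_NCD and 2.62, 2.09, 3.34 and 1.99 CPM in App_NCD, without overlap, and fell by 1.10 ± 0.29 (SE, adjusted p = 0.0271) on the log2 scale. Abcc9, the regulatory subunit, was at 21.3, 15.3, 16.4 and 23.1 CPM in WT_NCD and 11.1, 6.68, 12.0 and 38.5 CPM in App_NCD. Its first 3 App_NCD libraries were below WT_NCD, while App_NCD 553 was above all 15 other libraries. With all libraries the log2 fold change of Abcc9 was -0.16 ± 0.42 (SE, adjusted p = 0.833), and without App_NCD 553 it fell by 0.96 ± 0.27 (SE, adjusted p = 0.0259). The ratio of Abcc9 to Kcnj8 in CPM per kb was 5.90 in App_NCD 553 and 0.836 to 1.61 in the other 15 libraries. The ratio of Notch3 to Pdgfrb was 0.115 in that library and 0.440 to 0.941 in the others. App_NCD 553 thus lay outside the range of all other libraries for both ratios.

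**Figure D2:**
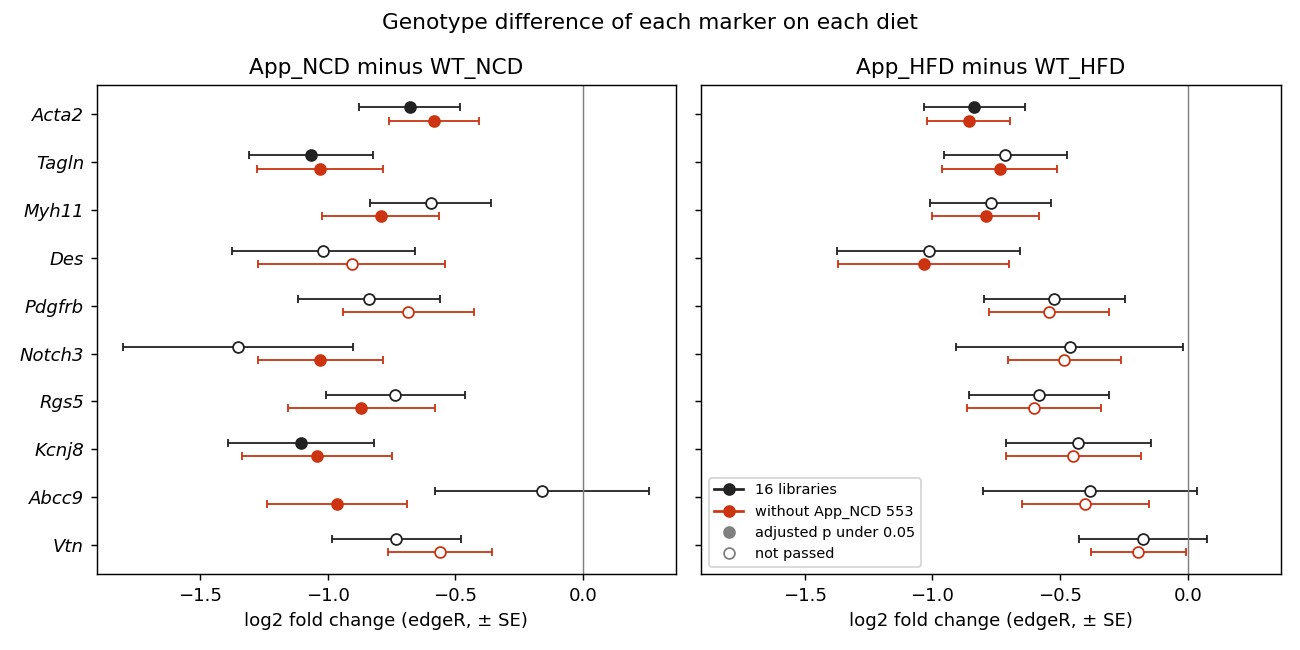
Log2 fold change of each marker between genotypes (edgeR, bars are SE) on the control diet (left) and the high-fat diet (right), with all 16 libraries (black) and without App_NCD 553 (red); filled points have an adjusted p under 0.05. All 20 values with all libraries lie below 0, and the filled red points number 7 on the control diet and 4 on the high-fat diet.

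On the high-fat diet Acta2 fell in the knock-in, and the other 9 had log2 fold changes below 0 that did not pass. With all libraries 1 of 10 was lower and none higher, where 2.05% of all genes were lower and 5.09% higher. Without App_NCD 553, which belongs to neither group compared but enters the filter, the scaling and the estimate of the spread, 4 of 10 were lower, namely Acta2, Tagln, Myh11 and Des. The shares of all genes were then 8.54% lower and 10.8% higher. The members' median log2 fold change was -0.55, against 0.01 over all genes. Groups did not overlap for 2 of 10 members, Acta2 and Myh11, where 10.0% of all genes had App_HFD wholly below WT_HFD.

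The contractile genes held those calls. Acta2 was at 18.01, 32.2, 24.8 and 30.4 CPM in the WT_HFD libraries 2, 3, 15 and 16, and at 15.4, 14.6, 17.5 and 11.5 CPM in the App_HFD libraries 547, 559, 560 and 561. WT_HFD 2 was the lowest wild-type library, just above the highest knock-in one. Acta2 fell by 0.84 ± 0.20 (SE, adjusted p = 0.0170) on the log2 scale, and the value was -0.86 ± 0.16 (SE, adjusted p = 0.00173) without App_NCD 553. Myh11 was at 18.3, 33.9, 20.8 and 24.9 CPM in WT_HFD and 12.2, 14.5, 16.7 and 14.0 CPM in App_HFD, again without overlap. Myh11 had -0.77 ± 0.24 (SE, adjusted p = 0.0635) on the log2 scale, and -0.79 ± 0.21 (SE, adjusted p = 0.0150) without App_NCD 553. Tagln was at 7.66, 14.3, 8.10 and 15.9 CPM in WT_HFD, where libraries 2 and 15 were low, and 6.81, 6.45, 8.63 and 6.18 CPM in App_HFD, so the groups overlapped. Tagln had -0.71 ± 0.24 (SE, adjusted p = 0.0949) on the log2 scale, and -0.74 ± 0.22 (SE, adjusted p = 0.0313) without App_NCD 553. Des was at 1.62, 3.47, 2.36 and 6.10 CPM in WT_HFD, with library 16 highest, and 1.29, 1.76, 2.09 and 1.56 CPM in App_HFD, and the groups overlapped. Without App_NCD 553 Des fell by 1.03 ± 0.34 (SE, adjusted p = 0.0418).

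The pericyte, receptor and channel genes did not pass on the high-fat diet, with or without App_NCD 553. Rgs5 was at 45.2, 127, 109 and 105 CPM in WT_HFD and 57.7, 60.9, 63.4 and 75.7 CPM in App_HFD. WT_HFD 2 lay below every App_HFD library, and the other 3 lay above them. The log2 fold changes were -0.58 for Rgs5, -0.52 for Pdgfrb, -0.46 for Notch3, -0.43 for Kcnj8, -0.38 for Abcc9 and -0.17 for Vtn. Vitronectin was the flattest, at 71.0 ± 18.5 CPM in WT_HFD and 62.9 ± 2.62 CPM in App_HFD (SD, n = 4). WT_HFD 2 was the lowest of its group for all 10 members, with a summed level of 185 CPM against up to 404 CPM in the same group. Without App_NCD 553, WT_HFD 2 and WT_HFD 16 together, 6 members were lower on this diet, namely Pdgfrb, Rgs5, Acta2, Myh11, Kcnj8 and Notch3. That fit kept only WT_HFD 3 and WT_HFD 15 of their group, so it dropped the library lowest for all 10 members. The same fit called 9 on the control diet. Leaving out WT_HFD 2 alone gave 3 calls on the high-fat diet, leaving out WT_NCD 11 gave 2, and leaving out WT_HFD 3 or App_HFD 561 gave none. The shares of all genes called in these fits are not given here.

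Averaged over the diets, the 2 genotypes differed in 7 of 10 members, all lower in the knock-in, where 6.34% of all genes were lower and 10.6% higher. In edgeR the values on the log2 scale were -0.89 ± 0.17 (SE, adjusted p = 0.00189) for Tagln, -0.76 ± 0.14 (SE, adjusted p = 0.00137) for Acta2 and -1.02 ± 0.25 (SE, adjusted p = 0.0111) for Des. Kcnj8, Myh11, Pdgfrb and Rgs5 also fell, with log2 fold changes of -0.77, -0.68, -0.68 and -0.66. Notch3 (-0.91, adjusted p = 0.0606), Vtn (-0.45, adjusted p = 0.0957) and Abcc9 (-0.27, adjusted p = 0.578) did not pass. Without App_NCD 553 all 10 were lower, where 17.4% of all genes were lower and 16.2% higher, and the smallest difference was that of Vtn, -0.38 ± 0.14 (SE, adjusted p = 0.0450).

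The genotype differences were not shown to depend on the diet. No member passed the test of the interaction, in edgeR, DESeq2 or limma-voom, and none had an unadjusted p under 0.05. Over all genes edgeR called 0%, and 2.94% had an unadjusted p under 0.05. The same held in edgeR without App_NCD 553, where 0% of all genes were called and 2.75% had such a p. The order of the members rested on that library. With it the highest interactions were 0.89 ± 0.63 (SE) for Notch3 and 0.68 ± 0.40 for Kcnj8 on the log2 scale, each with an adjusted p of 0.851. Without it Notch3 was at 0.54 ± 0.33, below Kcnj8 at 0.59 ± 0.39 and Abcc9 at 0.56 ± 0.37, and Abcc9 had been at -0.22 ± 0.59 with all libraries.

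Diet alone moved no member past the threshold. In wild type the median log2 fold change of the 10 was -0.03, none passed in edgeR, DESeq2 or limma-voom, and none had an unadjusted p under 0.05, where edgeR called 0% of all genes and 1.92% had an unadjusted p under 0.05. The range ran from -0.39 for Myh11 to 0.17 for Rgs5. Without App_NCD 553 no member had an unadjusted p under 0.05 either, where 5.10% of all genes did and 0% were called. In the knock-in the median was 0.23. None passed by any of the 3 tools, and 2 had an unadjusted p under 0.05 in edgeR, where 0% of all genes were called and 11.9% had such a p. The 2 pointed opposite ways, Myh11 at -0.56 ± 0.24 (SE, adjusted p = 0.396) and Vtn at 0.58 ± 0.25 (SE, adjusted p = 0.400). Neither kept an unadjusted p under 0.05 without App_NCD 553, where Myh11 was at -0.39 ± 0.23 (SE, adjusted p = 0.774) and Vtn at 0.39 ± 0.20 (SE, adjusted p = 0.741). Abcc9 was then the 1 member with such a p, at 0.68 ± 0.27 (SE, adjusted p = 0.618), after -0.10 with all libraries. In that fit 7.06% of all genes had an unadjusted p under 0.05 and 0% were called. Vitronectin was at 59.5 to 65.9 CPM in App_HFD, a tight range inside that of WT_NCD, and at 23.2 to 63.0 CPM in App_NCD. With all libraries Kcnj8 was the 1 of 10 members with every App_HFD library (3.53 to 4.08 CPM) above every App_NCD library (1.99 to 3.34 CPM), a pattern of 3.23% of all genes, and its log2 fold change of 0.57 ± 0.29 (SE, adjusted p = 0.434) did not pass. Without App_NCD 553 this pattern held for 3 members, Kcnj8, Rgs5 and Abcc9, and for 4.36% of all genes. Acta2 then had every App_HFD library below every App_NCD library, as did 3.84% of all genes.

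The members moved together from library to library. Over the 15 libraries without App_NCD 553, all 45 pairs of members had a positive Pearson correlation of log2 CPM, with a median of 0.703. The pair with the highest value was Rgs5 and Abcc9 at 0.956, and the lowest was Myh11 and Vtn at 0.245. Kcnj8 and Abcc9 had 0.886 and Acta2 and Tagln 0.866. After each group's mean was subtracted the median was 0.541 and 43 of 45 pairs were positive, so in these 15 libraries the shared movement was present within groups. With App_NCD 553 the lowest pair was Abcc9 and Notch3 at -0.150, and the highest was Acta2 and Tagln at 0.878. After each group's mean was subtracted from all 16 libraries, the median was 0.430 and 39 of 45 pairs were positive. The lowest pair was again Abcc9 and Notch3, at -0.564. These are descriptions over libraries that share group and scaling, and no test was made. Within groups, the knock-in on the high-fat diet was the most even: the summed level of the 10 was 203 to 234 CPM in App_HFD. It was 272 to 351 CPM in WT_NCD, 185 to 404 in WT_HFD and 149 to 209 in App_NCD.

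**Figure D3:**
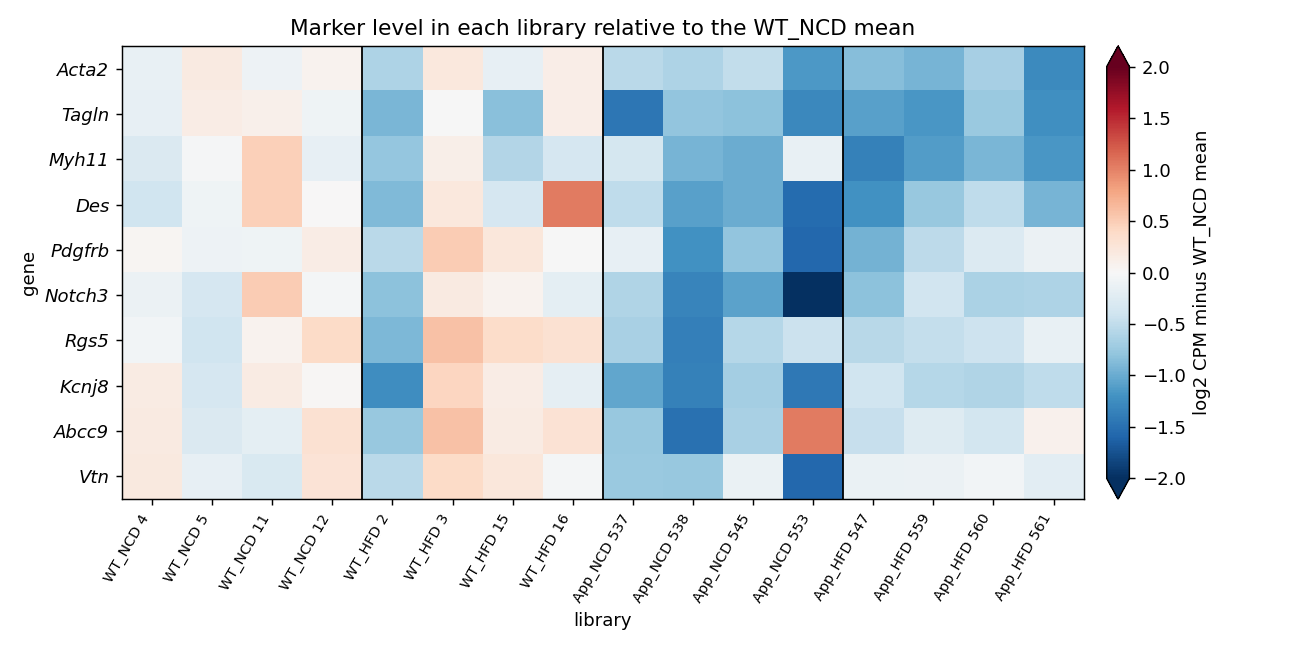
Log2 CPM of each marker in each library minus the marker's mean in WT_NCD; blue is lower and red higher, and the colour scale ends at ±2 so that Notch3 in App_NCD 553 lies past it. The columns of App_NCD, App_HFD and WT_HFD 2 are blue for 9 or 10 of the 10 markers, and the exception in App_NCD 553 and App_HFD 561 is Abcc9.

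Of 18 further pericyte genes, 1 was called on both diets with all libraries, Cspg4, and it rose. On the control diet 1 was lower and 1 higher, where 1.88% of all genes were lower and 6.50% higher. Without App_NCD 553, 3 were lower and 1 higher, where 7.22% of all genes were lower and 10.2% higher. The median log2 fold change over the 18 was -0.65 with all libraries. Lamc3, a laminin chain, fell by 1.39 ± 0.38 (SE, adjusted p = 0.0341) from 5.64 ± 1.42 CPM in WT_NCD to 2.13 ± 1.08 CPM in App_NCD (SD, n = 4). The gene that rose was Cspg4, the NG2 proteoglycan, from 10.6 ± 1.24 to 40.8 ± 24.0 CPM, by 1.94 ± 0.43 (SE, adjusted p = 0.0115). Cspg4 is shared by pericytes and oligodendrocyte precursors and stands in both lists here. Cspg4 rose again on the high-fat diet (2.15, adjusted p = 0.00649) and none of the 18 was called lower. Of all genes 2.05% were lower and 5.09% higher. Cspg4 thus went against all 10 members. Without App_NCD 553, 3 of the 18 fell on the high-fat diet too, where 8.54% of all genes were lower and 10.8% higher. Averaged over the diets 3 of the 18 were lower, or 12 without that library, with Cspg4 higher in both fits. Of all genes 6.34% were then lower, or 17.4% without that library. These shares of all genes, by diet and fit, also apply to the lists below.

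Of 16 other contractile genes, Tpm2, a tropomyosin, was lower on both diets and Prkg1, a cyclic-GMP-dependent kinase that relaxes smooth muscle, was higher on both. Tpm2 was at 7.29 ± 1.36 CPM in WT_NCD and 4.03 ± 0.780 CPM in App_NCD, and fell by 0.85 ± 0.23 (SE, adjusted p = 0.0298). Prkg1 was at 1.60 ± 0.273 and 5.08 ± 0.512 CPM and rose by 1.66 ± 0.20 (SE, adjusted p = 1.02e-04). Without App_NCD 553, 5 of the 16 were lower on the control diet (Mylk, Lmod1, Cald1, Tpm1 and Tpm2) and 6 on the high-fat diet (Myl9, Mylk, Cald1, Tpm1, Tpm2 and Mrvi1), with Prkg1 higher on each. The median over the 16 was -0.44 and -0.45 on the 2 diets. The CArG-binding factor Srf itself, named after its values were seen, was at 27.2 ± 1.90 CPM in WT_NCD and 24.4 ± 8.10 CPM in App_NCD (log2 fold change -0.15, adjusted p = 0.644).

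Among 18 genes of PDGF, Notch, TGF-β and angiopoietin signalling between endothelium and mural cells, 2 were lower and 2 higher on the control diet. Hey1, a Notch target, fell by 0.81 ± 0.17 (SE, adjusted p = 0.00780) on the log2 scale, and Tek, the angiopoietin receptor of endothelial cells, fell by 1.43 ± 0.33 (SE, adjusted p = 0.0128). Tgfb1, a ligand, rose by 1.92 ± 0.23 (SE, adjusted p = 9.17e-05) and its receptor Tgfbr1 by 1.04 ± 0.20 (SE, adjusted p = 0.00417). On the high-fat diet Pdgfd, a ligand of PDGFRB, fell by 1.04 ± 0.30 (SE, adjusted p = 0.0465), and Tgfb1 and Tgfbr1 rose by 2.04 and 1.12. Pdgfb, the ligand that recruits mural cells, was at 32.0 ± 5.79 CPM in WT_NCD and 56.0 ± 27.9 CPM in App_NCD, a log2 fold change of 0.81 that did not pass (adjusted p = 0.152). Without App_NCD 553, 5 of the 18 were lower and 3 higher on the control diet, and 4 lower and 3 higher on the high-fat diet. In that fit Pdgfb rose on the control diet by 1.10 ± 0.16 (SE, adjusted p = 2.02e-04), while Pdgfrb did not pass in either fit. Microglia also express Tgfb1 and Tgfbr1, and microglial markers were higher in the same libraries. Which cells the rise of Tgfb1 and Tgfbr1 came from was not tested.

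Of 7 further channel genes of the vessel wall 6 passed the filter on low counts, Abcc8 being the one that did not. Kcnj2, an inward-rectifier pore, rose from 9.19 ± 1.71 to 62.3 ± 10.2 CPM on the control diet, by 2.76 ± 0.19 (SE, adjusted p = 3.68e-07), and by 2.64 on the high-fat diet (adjusted p = 6.62e-07). Kcnma1, a calcium-activated potassium channel, rose by 0.89 (adjusted p = 0.0114) and 0.77 (adjusted p = 0.0275). Kcnj11, the pore of the pancreatic and neuronal form of the ATP-sensitive channel, was at 0.416 ± 0.0581 CPM in WT_NCD and 0.275 ± 0.212 CPM in App_NCD and did not pass (adjusted p = 0.547). On the control diet Kcnj2 and Kcnma1 thus moved opposite to Kcnj8. Which cells the transcripts of Kcnj2 and Kcnma1 came from was not tested. Both were higher on each diet without App_NCD 553 as well, and in that fit Kcnj11 was lower on the high-fat diet (-1.03, adjusted p = 0.00963). The correlation of the list's mean with the members' mean was -0.290 over 15 libraries and 0.115 over all 16, so its sign turned with App_NCD 553.

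Some markers of endothelial cells, which mural cells wrap, fell in the same groups. The 17 endothelial genes had a median log2 fold change of -0.79 on the control diet, equal to that of the 10 members to 2 decimals. On that diet 5 of 17 were lower, where 1.88% of all genes were. Without App_NCD 553, 10 were lower, where 7.22% of all genes were. The endothelial median on the high-fat diet was -0.64 and 2 of 17 were lower, where 2.05% of all genes were. Without App_NCD 553, 6 were lower on that diet, where 8.54% of all genes were. The summed level of the 17 was 453 to 768 CPM in WT_NCD and 448 to 895 CPM in WT_HFD. It was 331 to 491 CPM in App_NCD and 493 to 571 CPM in App_HFD. Over 15 libraries the mean log2 CPM of the members and of the endothelial list had a correlation of 0.896. The members' mean minus the endothelial mean was -0.44 ± 0.25 (SD, n = 4) in WT_NCD and -0.37 ± 0.27 in App_NCD. It was -0.63 ± 0.15 in WT_HFD and -0.60 ± 0.11 in App_HFD. Within each diet the difference between genotypes was thus smaller than the SD. Of the defining endothelial genes, Pecam1 was at 35.0 ± 9.28 CPM in WT_HFD and 18.8 ± 1.66 CPM in App_HFD (adjusted p = 0.0276), and Cldn5 at 26.2 ± 11.2 CPM in WT_NCD and 9.96 ± 8.47 CPM in App_NCD (adjusted p = 0.151). Pecam1 is given here on the high-fat diet alone and Cldn5 on the control diet alone, so the diets are not compared.

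The 10 vascular fibroblast genes had medians of -0.37 and -0.68 on the 2 diets, with 1 of 10 lower on each (Col1a2 on the control diet and Fbln1 on the high-fat diet). Without App_NCD 553 their medians were -0.69 and -0.70, with 3 of 10 lower on each diet, and 8 of 10 were lower averaged over the diets, against 3 with all libraries. Microglial genes went the other way: 6 of 10 rose on the control diet and 8 of 10 on the high-fat diet, and 8 on each without App_NCD 553. Their summed level was 3477 to 5796 CPM in WT_NCD, 2611 to 4922 in WT_HFD, 6837 to 14098 in App_NCD and 8887 to 15099 in App_HFD, so the genotypes did not overlap on either diet. Of the 20 myelin and mature oligodendrocyte genes none passed in edgeR on the control diet (7 had an unadjusted p under 0.05), with a median of -0.40, and 1 was lower on the high-fat diet, with a median of -0.15. Without App_NCD 553 none passed on the control diet (7 at an unadjusted p in edgeR) and 2 were lower on the high-fat diet. Their summed level was 53614 to 72217 CPM in WT_NCD and 41710.0 to 70304 CPM in App_NCD. Among precursor genes, Pdgfra fell by 1.46 ± 0.28 (SE, adjusted p = 0.00469) on the high-fat diet, and was at 23.9 ± 4.80 CPM in WT_NCD and 19.4 ± 6.12 CPM in App_NCD (adjusted p = 0.491). Cspg4, in the same list, rose on the high-fat diet, as given above. The precursor list's mean log2 CPM was 5.42 ± 0.189 in WT_HFD and 5.22 ± 0.108 in App_HFD (SD, n = 4). Its summed level was 1877 to 2387 CPM in WT_HFD and 1612 to 1751 CPM in App_HFD. Of the 10 astrocyte genes 1 was lower on the control diet and none passed on the high-fat diet (2 at an unadjusted p under 0.05 in edgeR), and of the 10 neuron genes none passed on either diet (1 at an unadjusted p on each). Without App_NCD 553, 2 astrocyte genes were lower on the control diet and 1 lower and 1 higher on the high-fat diet, and 1 neuron gene was lower on each. No marker of these cell types was at 0 throughout a group. The part of these cells in the members' difference was not tested.

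On the high-fat diet all 5 erythroid genes were lower in the knock-in, with a summed level of 384 to 9049 CPM in WT_HFD and 147 to 467 CPM in App_HFD, and 4 of 8 choroid plexus and ependymal genes were lower. Without App_NCD 553 the counts were 5 of 5 and 5 of 8, where 8.54% of all genes were lower, against 2.05% with all libraries. The 8 choroid plexus and ependymal genes summed to 17705.5 to 36227 CPM in WT_HFD and 7072 to 14728.5 CPM in App_HFD. On the control diet they summed to 24459 to 30083 CPM in WT_NCD and 9038 to 21005 CPM in App_NCD. Scaled to the myelin and mature oligodendrocyte list in place of all genes, the median of all genes moved to 0.38 on the control diet and the members' median to -0.42, and no member was called on either diet. Relative to the median of all genes, the members' median was -0.77 under TMM and -0.81 under this scaling. On the high-fat diet it was -0.56 and -0.55. A change of scaling shifts all genes by nearly the same amount, so this difference could hardly change and is no check of the calls. Under the oligodendrocyte scaling Abcc9 on the control diet (0.41) and Vtn on the high-fat diet (0.04) had log2 fold changes above 0, neither past the threshold.

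**Figure D4:**
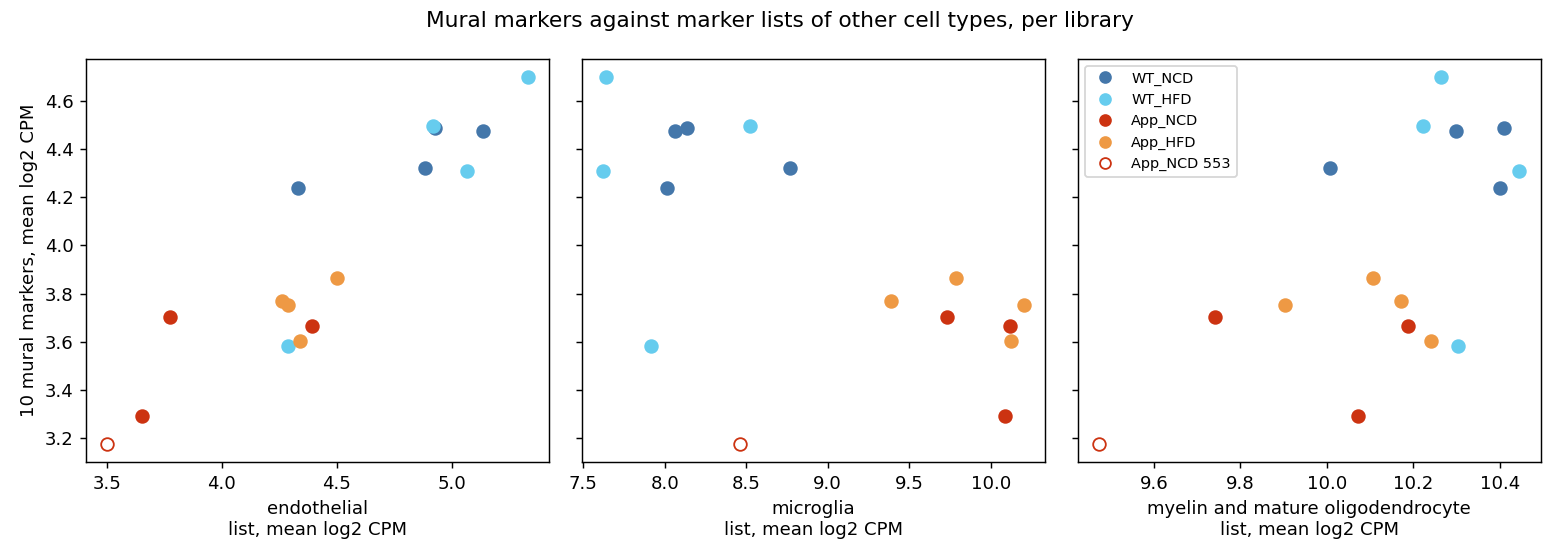
Mean log2 CPM of the 10 mural markers (vertical axis) against the mean log2 CPM of the endothelial, microglial and myelin lists (horizontal axes), 1 point per library; App_NCD 553 is open. The points rise together with the endothelial list, and in the microglial panel the knock-in libraries other than App_NCD 553 lie to the right of all wild-type ones and below most of them.

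The genes whose levels were most like the members' mean over 15 libraries were Mylk (Pearson correlation 0.954), Tek, Itga1, Rgs4, Enpep, Dlc1, Atp13a5, Ehd2, Mcf2l and She (0.916), out of 14806 genes that averaged 1 CPM or more. Mylk encodes the kinase that starts smooth muscle contraction, and Rgs4 and Atp13a5 stood in the pericyte list. Over all 16 libraries 4 of these 10 were again among the first 10. Mylk was at 16.8 ± 0.542 CPM in WT_NCD and 11.9 ± 2.90 CPM in App_NCD. Enpep, an aminopeptidase of the angiotensin pathway on pericytes, was at 4.71 ± 1.05 and 2.51 ± 0.460 CPM. These genes were picked for following the members' mean in the same libraries, so their levels are a description, with no test of genotype.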

How the data were processed

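RNA was measured in 16 libraries of sorted oligodendrocytes, 4 in each of 4 groups set by the labels. The deposited table holds estimated counts per gene, made by the authors with fastp 0.23.2, HISAT2 2.2.1 and StringTie 2.2.1 on mm10, per the submitters' processing notes, which also name bedtools 2.25.0; the annotation is not given in the sources used here. StringTie derives counts from coverage. All values were whole, so rounding changed nothing. The library kit keeps strand and starts from poly(A) RNA, per the labels' protocols.

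Counts were filtered with filterByExpr, scaled by TMM and tested with edgeR 4.0.16 (robust quasi-likelihood, limma 3.58.1, R 4.3.3) fitting 4 group means to 16 libraries (12 residual degrees of freedom), adjusted by Benjamini-Hochberg over 21768 genes (22322 without App_NCD 553), at a threshold of 0.05. The contrasts were genotype on each diet and averaged, diet in each genotype, and the interaction. Log2 CPM used a prior count of 0.5. Gene lengths are unions of exons of GENCODE M21. Counting error (the square root of the mean inverse count) was 0.951% to 11.3% for the 40 pairs of member and group. It was at most 0.462 times the coefficient of variation between libraries, except for Kcnj8 in App_HFD (6.13% against 6.59%). The biological coefficient of variation was 36.5%, and 26.3% without App_NCD 553. The procedure was tested on simulated counts.

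Members and gene lists were chosen with earlier results of these data known. The text names the 10 members, up to 4 called genes of each other list by adjusted p (where none passed, up to 2 by level), Cspg4, Cldn5, Pecam1, Pdgfb, Pdgfra and Mbp, and the 10 genes most correlated with the members' mean. It describes fewer than that, and Lmod1, Tpm1, Myl9, Mrvi1, Kcnj11, Abcc8 and Srf were named beyond it. Alternatives were DESeq2 1.42.0, RLE scaling, scaling to library totals or to the oligodendrocyte list, limma-voom (quality weights) and other filters. Others were only the 8 libraries compared, an unadjusted p and each library left out. Library totals, RLE, DESeq2 and voom without App_NCD 553 were added after seeing the data.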

Additional observations from a re-analysis of the deposited data

Results flagged for a closer look

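Abcc9 in App_NCD 553, at 38.5 CPM, lay far from the other App_NCD libraries, which were at 6.68 to 12.0 CPM. Its gap to the nearest of them was 0.833 of the group's range, just over Dixon's critical value for 4 samples. Of 40 groups of 4 examined (10 members in 4 groups) it was the 1 past the limit, and chance alone passes about 1 in 20. Notch3 in the same library, at 1.59 CPM, did not pass the limit.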

How the results depend on the processing

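Genotype calls among the 10 members depended on App_NCD 553, on the tool and on the scaling, while their direction held in most fits. The share of all genes called differs between fits and is given here only for edgeR with and without App_NCD 553. The counts from other fits therefore describe the members alone and do not set them apart from all genes. On the control diet (3 called) the count was 7 with DESeq2, 10 with limma-voom, 9 at an unadjusted p, 1 with the libraries of the pair alone and 0 when scaled to the oligodendrocyte list. It ran from 1 to 7 with single libraries left out. Without App_NCD 553 it was 8 with library totals, 6 with RLE, 7 with DESeq2, 10 with voom and 0 when scaled to the oligodendrocyte list, and 9 without WT_HFD 2 and 16 as well. On the high-fat diet (1 called) it was 4 with DESeq2, 6 with voom, 5 at an unadjusted p, 3 with the pair alone, 0 with library totals and 0 when scaled to the oligodendrocyte list, and from 0 to 4 with single libraries left out. Without App_NCD 553 it was 4 with library totals, 4 with RLE, 4 with DESeq2 and 6 with voom, and 6 without WT_HFD 2 and 16 as well. Averaged over diets (7 called) it was 2 when scaled to the oligodendrocyte list, with and without App_NCD 553, and from 5 to 10 with single libraries left out. Diet in App gave 2 at an unadjusted p. Over all genes, leaving out App_NCD 553 raised the calls from 1826 to 3900 on the control diet, from 1554 to 4307 on the high-fat diet and from 3692 to 7502 averaged. The cause of these shifts was not tested. Of 300 values of single members on the control diet 298 kept their sign, and 298 of 300 on the high-fat diet. The exceptions not named above were Abcc9 without App_NCD 538 (0.07) and Vtn without App_NCD 553 under oligodendrocyte scaling (0.04). These values are refits of the same libraries and are not independent, so the kept signs are no separate support for a direction. No paired analysis was possible because the groups share no replicate numbers.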
